A study of Arabidopsis thaliana with 6 samples.

Results

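The autonomous pathway and the FRIGIDA complex set how much of the floral repressor *FLOWERING LOCUS C* (*FLC*) a plant makes before winter. The genes described here are 10 regulators chosen by name and locus identifier: the RNA-processing factors *FCA*, *FY*, *FPA* and *FLK*, the chromatin factors *FLD*, *FVE* and *REF6*, the homeodomain gene *LD*, and the activators *FRI* and *SUF4*. All 10 were found among the 18368 genes used. RNA had been sequenced from whole wild-type Col-0 seedlings of *Arabidopsis thaliana* after 4 weeks of vernalization (4v, 3 libraries) and from non-vernalized seedlings (0v, 3 libraries). The 4v seedlings had spent 7 days at 22 °C and then 28 days at 5 °C, and were 35 days old. The 0v seedlings had spent 11 days at 22 °C, so that age and cold cannot be told apart between the groups. No transgene or mutation separates them, and the replicates of a group were grown on separate plates.

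*FLC* encodes a MADS-box protein that holds back flowering. Autonomous-pathway proteins keep it low whether or not the plant meets cold, in part by acting on the 3′ end processing of its antisense transcripts and in part through histone deacetylation and demethylation. The FRIGIDA complex works the other way and raises *FLC* transcription, and prolonged cold silences the gene through Polycomb proteins. Col-0 is a rapid-cycling accession that carries a non-functional *FRI* allele, so its *FLC* starts from a low level.

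The comparison asks whether the regulators themselves changed in transcript level after 4 weeks in the cold. *FVE* was the only one that passed the test, at 1.59 times its 0v level (95% interval 1.23 to 2.06, n = 3 in each group). No member passed as lower. *LD* was lower in each 4v library than in any 0v library without passing. The other members had overlapping groups, and *FY* and *FLD* were listed at 0 in some libraries.

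The values are normalized counts, that is, estimated reads per gene divided by 1 size factor per library. The test was limma on log2(normalized count + 4), two-sided, with Benjamini-Hochberg adjustment over the 16771 genes with a mean of at least 10 and a threshold of 0.05 on the adjusted p. On this scale the change of a low gene comes out smaller than it is. Of all genes tested 6.46% passed as higher and 6.99% as lower in 4v (13.4% in either direction), so that 1 of 10 members is a share like that of all genes. The groups did not overlap in 1 of 10 members on the higher side (*FVE*), against 20.5% of all genes, and in 1 of 10 on the lower side (*LD*), against 18.7% of all genes (39.2% on either side). The median log2 fold change of the members was 0.17, with 7 positive and 3 negative, and that of all genes tested was 0.05.

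The libraries differed 14.1 times in depth. The 4v libraries held 1636687, 23141488 and 1836717 reads, and the 0v libraries 1785974, 1645379 and 20005225. Replicate 2 of 4v and replicate 3 of 0v are therefore called the deep libraries. In the 4 shallow libraries 24.2% to 29.6% of genes had under 10 reads, against 1.06% and 2.52% in the deep ones. *VIN3*, which is induced by prolonged cold, checks the labels: it had 36.5, 76.2 and 122 normalized counts in 4v, against 0, 0 and 1.05 in 0v. Of 4 reference genes none passed in limma (0 of 4 also at an unadjusted p under 0.05, and 0 of 4 in edgeR, DESeq2 and limma-voom), with log2 fold changes of -0.23 (*PP2AA3*), 0.00 (*UBC21*), 0.01 (*TIP41L*) and 0.42 (*SAND*). Without 0v replicate 3, where *SAND* stood at 261 against 154 and 155 in the other 0v libraries, it passed as higher (0.67, limma adjusted p = 0.0251).

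**Figure D1:**
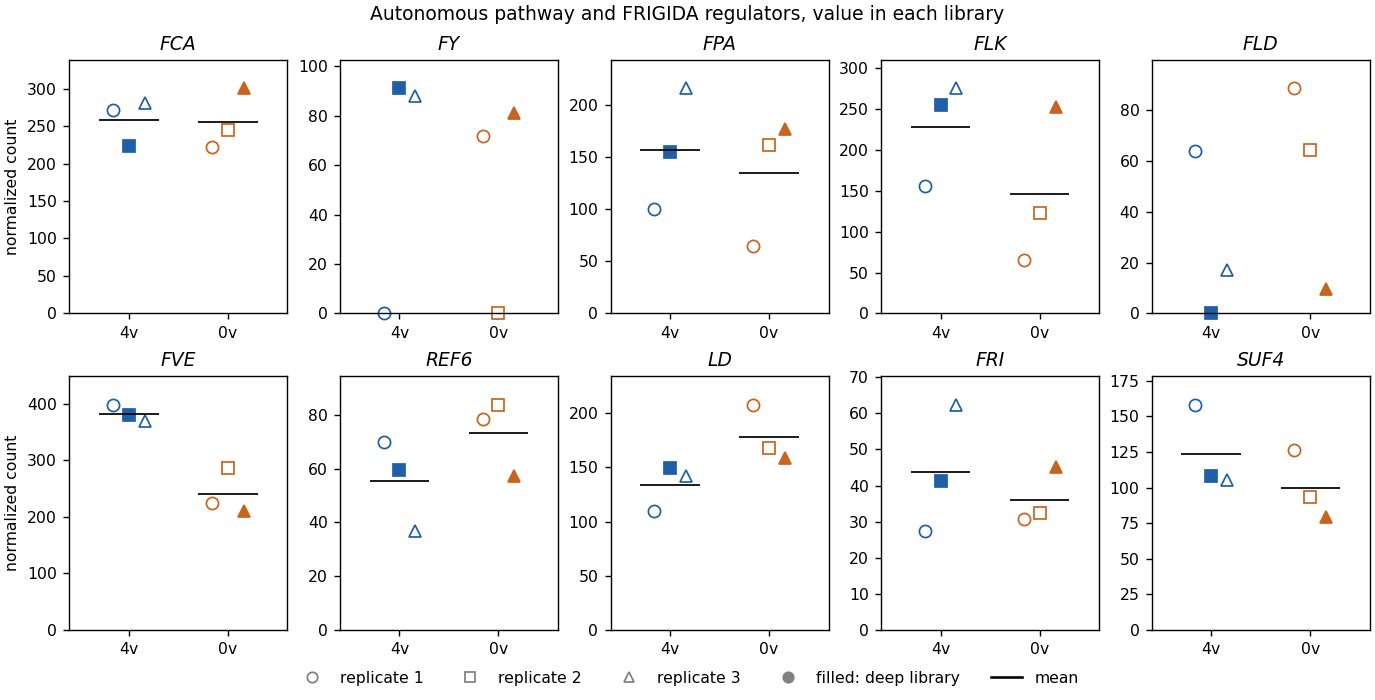
Normalized count (vertical axis, from 0) of each of the 10 regulators in the 3 libraries of 4v (blue, left) and of 0v (orange, right). Marker shapes give the replicate, filled markers the 2 deep libraries and black lines the group mean (not drawn for a gene with a library at 0); *FVE* is the panel in which each 4v point lies above each 0v point, and in the panels of *FY* and *FLD* the points on the axis are libraries listed at 0.

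*FCA* (AT4G16280) encodes an RNA-binding protein that promotes the early polyadenylation of antisense transcripts at *FLC*. The gene spans chr4:9206597-9214981 on the minus strand (TAIR10, as are the positions that follow). Normalized counts of *FCA* were 271, 224 and 281 in 4v, against 222, 245 and 301 in 0v. The highest and the lowest value both belonged to 0v, and the groups overlapped throughout. The means were 259 ± 30.5 in 4v and 256 ± 40.4 in 0v (SD, n = 3 each), and the log2 fold change was 0.02 (95% interval -0.39 to 0.43, limma adjusted p = 0.950). The interval was the second narrowest of the members and runs from 0.765 to 1.34 times the 0v level. In the deep libraries alone, with 1105 reads in 4v and 1142 in 0v, the ratio was 0.745 (exact 95% interval 0.685 to 0.810, counting error only), whereas the shallow libraries gave a log2 fold change of 0.24. The sign of so small a change was not stable, as 7 of the alternatives gave it a negative value.

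*FY* (AT5G13480) encodes a WD-repeat protein of the polyadenylation machinery and binds FCA. Its position is chr5:4326397-4331971, minus strand. *FY* had normalized counts of 0, 91.2 and 88.0 in 4v, against 71.7, 0 and 81.3 in 0v. Where it was listed above 0, the 4 values lay within a narrow range, with the 4v ones above the 0v ones. At the lowest of them the library of 4v replicate 1 would hold 23.5 reads and that of 0v replicate 2 would hold 22.2 reads, against the 0 listed. Why these entries are 0 was not tested, and they are not read as absence of transcript. With 1 such library in each group, the fitted log2 fold change of 0.15 had a 95% interval of -3.59 to 3.88 (limma adjusted p = 0.960) and says little about *FY*. The deep libraries, both above 0, held 450 reads in 4v and 309 in 0v, a ratio of 1.12 (exact 95% interval 0.968 to 1.301).

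*FPA* (AT2G43410) encodes an RNA-binding protein that controls where transcripts are polyadenylated, independently of FCA. The minus strand of chr2:18025247-18031255 holds it. Its normalized counts were 100, 154 and 216 in 4v, against 64.9, 161 and 177 in 0v. Each group spread widely, with replicate 1 lowest in both. The log2 fold change of 0.27 (SE 0.43, 95% interval -0.74 to 1.29, limma adjusted p = 0.700) was smaller than its error. Without 0v replicate 1, which held 19 reads, it was -0.17. *FPA* overlaps *AT2G09470* by 412 bases and *AT2G43400* by 46 bases on the opposite strand, and as no source used here states whether counting used strand, reads of the overlaps cannot be assigned.

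*FLK* (AT3G04610) encodes a KH-domain RNA-binding protein. The gene spans chr3:1250553-1254984 on the minus strand. *FLK* stood at 155, 254 and 275 normalized counts in 4v, against 64.9, 123 and 252 in 0v. The 0v libraries spread widely, and 0v replicate 3 came close to the 2 upper 4v libraries. *FLK* had the largest positive log2 fold change of the members, 0.79, but also an SE of 0.47 (95% interval -0.32 to 1.90, limma adjusted p = 0.293). Without 0v replicate 3 the value was 1.27 (adjusted p = 0.0512), and the range over the 21 alternatives was 0.33 to 1.27, with adjusted p-values of 0.0512 to 0.620. The deep libraries, with 1255 reads in 4v and 959 in 0v, gave a ratio of 1.01 (exact 95% interval 0.926 to 1.10). The difference lay in the shallow libraries, where the 0v values rest on 19 and 38 reads.

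*FLD* (AT3G10390) encodes a homologue of the human histone demethylase LSD1 and acts downstream of FCA at *FLC*. Its position is chr3:3229060-3232531, plus strand. *FLD* had normalized counts of 63.9, 0 and 17.0 in 4v, against 88.8, 64.5 and 9.74 in 0v. The deep library of each group was its lowest: 0 reads in 4v replicate 2, where the lowest level listed elsewhere would give 48.0 reads, and 37 reads in 0v replicate 3. The shallow libraries held 21 and 6 reads in 4v, against 26 and 20 in 0v. The libraries of a group thus differed more than the groups, and the fitted log2 fold change of -1.31 had a 95% interval of -3.97 to 1.35 (limma adjusted p = 0.463). limma-voom on recovered reads, which gives deep libraries more weight, returned -6.50 (adjusted p = 0.0126), with the deepest library, 4v replicate 2, listed at 0. Without that library the limma estimate was -0.23 (adjusted p = 0.897). *FLD* overlaps *AT3G10405* by 75 bases on the opposite strand, with the same limit as for *FPA*.

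*FVE* (AT2G19520), also named *MSI4*, encodes a WD-repeat protein of the family of retinoblastoma-associated histone chaperones and works with histone deacetylases at *FLC*. Mutants are also known for altered cold-responsive gene expression. It occupies chr2:8455756-8459642 on the plus strand and has a single annotated transcript. In 4v *FVE* reached 399, 381 and 369 normalized counts, against 225, 287 and 210 in 0v. Each 4v library lay above each 0v library, and the 4v values differed little among themselves. The means were 383 ± 15.0 in 4v and 241 ± 40.7 in 0v (SD, n = 3 each). The fold was 1.59 (95% interval 1.23 to 2.06), a log2 fold change of 0.67 ± 0.16 (SE, limma adjusted p = 0.0350). The deep libraries, with 1880 reads in 4v and 799 in 0v, gave a ratio of 1.81 (exact 95% interval 1.67 to 1.97, counting error only). The shallow libraries gave a log2 fold change of 0.59.

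As no 4v library of *FVE* overlapped a 0v library, leaving out libraries or changing the pseudocount could not turn its direction. The direction held in 21 of 21 alternatives, with log2 fold changes of 0.58 to 0.80. The call did not: it was lost without 4v replicate 1 (adjusted p = 0.117), 4v replicate 2 (0.110), 4v replicate 3 (0.0969) or 0v replicate 1 (0.0965) in limma, and in 8 of the 21 alternatives in all.

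*REF6* (AT3G48430) encodes a Jumonji-domain demethylase that removes the Polycomb mark from histone H3. The gene spans chr3:17935256-17940792 on the plus strand. Its normalized counts were 70.0, 59.6 and 36.9 in 4v, against 78.5, 83.9 and 57.4 in 0v. The groups overlapped, as 2 of the 4v values lay above the lowest 0v value. The log2 fold change was -0.40 (SE 0.30, 95% interval -1.10 to 0.30, limma adjusted p = 0.392). The lowest 4v value rests on 13 reads. The deep libraries, with 294 reads in 4v and 218 in 0v, gave a ratio of 1.04 (exact 95% interval 0.869 to 1.24).

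*LD* (AT4G02560) encodes a homeodomain protein that represses *FLC* and is known to bind SUF4. Its position is chr4:1123475-1128490, minus strand. *LD* had normalized counts of 110, 150 and 142 in 4v, against 208, 168 and 159 in 0v. Each 4v library lay below each 0v library, but the nearest values of the groups differed little. The log2 fold change was -0.41 (SE 0.19, 95% interval -0.86 to 0.05, limma adjusted p = 0.194). It was negative in 21 of 21 alternatives, but leaving out libraries could not turn the sign where the groups do not overlap. It passed in none, with adjusted p-values of 0.156 to 0.437. The deep libraries, with 738 reads in 4v and 605 in 0v, gave a ratio of 0.939 (exact 95% interval 0.843 to 1.05).

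*FRI* (AT4G00650) encodes a coiled-coil scaffold protein around which the activating complex forms. The gene spans chr4:268901-271503 on the plus strand. The Col-0 reference annotation of RefSeq (TAIR10.1, with the same coordinates) ends its reading frame after 314 codons and leaves 1051 bases of transcript behind the stop codon, so that 44.6% of the transcript is coding. Its relatives *FRL1* and *FRL2* have frames of 470 and 473 codons, with 187 and 593 bases behind the stop. The end of the *FRI* frame, shown because it marks where the Col-0 protein stops, is spliced from chr4:269941-269964 and chr4:270358-270363, with the stop codon in capitals.

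FRI, last codons of the annotated frame, 5′ to 3′: gctttgaagcggtcacagtttcaggtaTAG

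The transcript was measurable all the same. *FRI* had 27.4, 41.1 and 62.5 normalized counts in 4v, against 30.7, 32.3 and 45.3 in 0v. The groups overlapped, and the lowest value rests on 9 reads. The log2 fold change was 0.20 (SE 0.35, 95% interval -0.63 to 1.04, limma adjusted p = 0.733), and the deep libraries gave a ratio of 0.909 (exact 95% interval 0.738 to 1.12). The sign turned without 4v replicate 3 (-0.072). *FRI* overlaps *AT4G03675* by 195 bases and *AT4G00651* by 17 bases on the opposite strand, with the same limit as for *FPA*.

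*SUF4* (AT1G30970) encodes a zinc-finger protein that brings the FRIGIDA complex to the *FLC* promoter. It occupies chr1:11040250-11043773 on the minus strand and overlaps *AT1G06397* by 146 bases on the same strand. Strand alone could not separate the reads of that overlap. Its normalized counts were 158, 108 and 105 in 4v, against 126, 93.6 and 79.5 in 0v. Each group had replicate 1 highest, and the highest 0v value lay above 2 of the 4v values. The log2 fold change was 0.30 (SE 0.25, 95% interval -0.29 to 0.89, limma adjusted p = 0.449). The deep libraries, with 533 reads in 4v and 302 in 0v, gave a ratio of 1.36 (exact 95% interval 1.18 to 1.57, counting error only). That interval leaves out the spread between replicates.

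**Figure D2:**
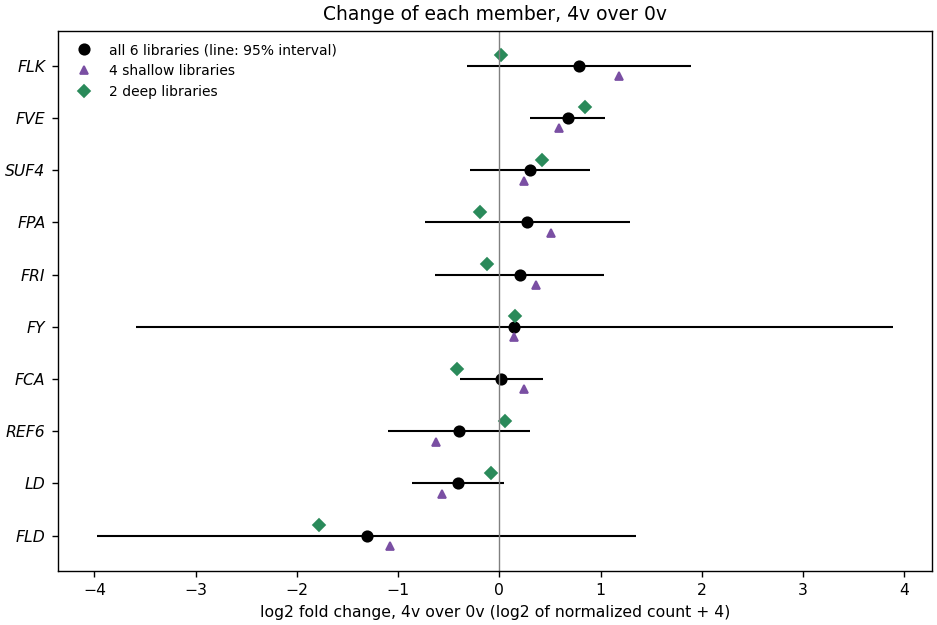
Log2 fold change of each regulator, 4v over 0v (horizontal axis, log2 of normalized count + 4), ordered by size, with the limma estimate over 6 libraries (black, line for the 95% interval), the 4 shallow libraries (purple triangles) and the 2 deep libraries (green diamonds). *FVE* is the only gene whose interval lies wholly on one side of 0, from 0.30 to 1.05, and those of *FY* and *FLD* are widest.

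Per kilobase of annotated exon, *FVE* was the most abundant regulator, with 176 ± 6.88 normalized counts per kb in 4v and 110 ± 18.7 in 0v (SD, n = 3 each). *FLK* had the second highest mean in 4v, 86.0 per kb, with a range that overlapped that of *SUF4*. In 0v its mean of 55.2 was close to that of *LD* (54.4) and rested on replicate 3: replicates 1 and 2 stood at 24.4 and 46.2 per kb, below each 0v library of *LD*, and the mean without replicate 3, taken after the values were seen, was 35.3. In 4v the lowest *FVE* library (169 per kb) stood clear of the highest *FLK* library (104), whereas in 0v the lowest *FVE* library (96.4) lay only just above the highest *FLK* library of that group. *SUF4*, *FCA* and *LD* had means between 40.8 and 57.1 per kb in 4v and between 46.0 and 54.4 in 0v, with overlapping ranges between neighbours. *FPA* averaged 29.8 per kb in 4v and 25.5 in 0v, and *FRI* 20.6 in 4v and 17.0 in 0v. Their ranges overlapped in both groups. *REF6* was lowest of the genes with no library at 0, at 11.6 per kb in 4v and 15.3 in 0v, and its range overlapped that of *FRI* in both groups. *FY* and *FLD* have no place in this order because of the libraries listed at 0. The exon length counts every base in any annotated transcript. Only 36.7% of it lies in every transcript of *FCA* and 53.7% in every transcript of *FPA*, so that their levels per kb are the least certain. The share was 70.4% in *REF6*, 72.4% in *SUF4*, 77.9% in *FLK* and 95.2% in *LD*. *FVE* and *FRI* have 1 annotated transcript each, so their place against genes with several is also uncertain.

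The listed zeros of *FY* and *FLD* follow a pattern of the whole table. Of 13061 genes with at least 50 normalized counts in 2 or more libraries, 633 (4.85%) were also listed at 0 in another. The share was 0.654% among genes with 1 annotated transcript and 14.8% among genes with 4, which is the number annotated for both *FY* and *FLD*. *FCA* and *FLK* also have 4 and *FPA* has 6, with no library at 0. *FVE* and *FRI* have 1 transcript each. In *FY* 83.4% and in *FLD* 75% of the exon bases lie in every annotated transcript. Whether the deposited values hold a single transcript for some genes was not tested.

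**Figure D3:**
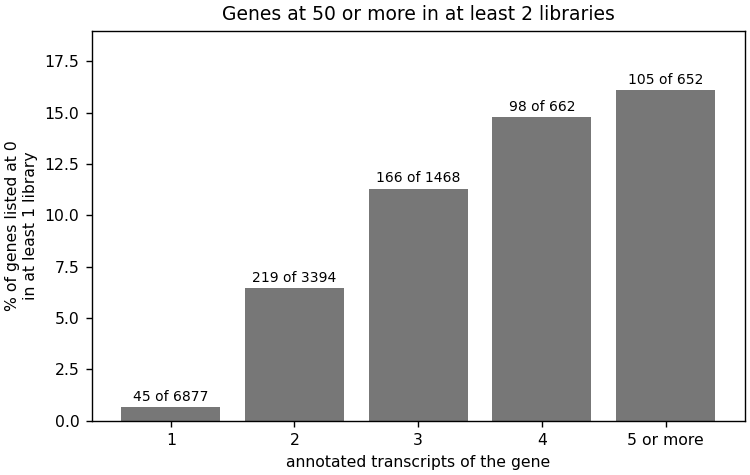
Share of genes listed at 0 in at least 1 library (vertical axis, percent) among genes with at least 50 normalized counts in 2 or more libraries, by the number of annotated transcripts (horizontal axis). The numbers over the bars give the genes at 0 and all genes of the class; the share is 0.654% with 1 transcript and 14.8% with 4, the class of *FY* and *FLD*.

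In bulk seedlings fewer cells of a type and less RNA per cell cannot be told apart. The summed normalized counts of 8 markers of dividing cells were 515, 529 and 650 in 4v, against 430, 690 and 391 in 0v, and none of the 8 passed in limma (2 at an unadjusted p under 0.05, 0 in edgeR and DESeq2, 3 higher in limma-voom). Those of 5 root markers were 426, 331 and 380 in 4v, against 468, 474 and 310 in 0v. Of the 3 root markers that could be tested 0 passed in limma (1 at an unadjusted p under 0.05, 0 in edgeR, 1 lower in DESeq2 and 2 lower in limma-voom). Of all 16771 genes limma-voom called 2498 higher and 2318 lower. The 3 green-tissue markers summed to between 262538 and 515102 in 4v, against 222139 to 372361 in 0v, with 0 of 3 passing in limma (0 at an unadjusted p under 0.05, 0 in the other tools). The summed levels of the groups overlapped for all 3 lists, and no defining marker was at 0. Of single markers, named after their values were seen, *CDKB1;1* and *CYCB1;4* of dividing cells and *SCR* of the root were higher in each 4v library than in any 0v library, and *CASP1* of the root was lower. *CDKB1;1* had 54.8, 28.4 and 48.3 normalized counts in 4v, against 13.7, 22.6 and 15.3 in 0v, and *CASP1* had 85.3, 38.3 and 68.1 in 4v, against 167, 210 and 102 in 0v. Among the 8 markers of dividing cells 2 did not overlap on the higher side and 0 on the lower side. Among the 3 tested root markers it was 1 on each side. Of all genes tested 20.5% did not overlap on the higher side and 18.7% on the lower side. The log2 fold change was positive in 6 of the 8 markers of dividing cells and negative in 2. The part of these markers in the members' values was not tested.

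A wider list held partners, relatives and targets of the members. Of 66 genes listed, 63 were in the table and 62 were tested, of which 3 passed as higher and 2 as lower in limma, against 6.46% and 6.99% of all genes. At an unadjusted p under 0.05 there were 18 of 62, against 5374 of 16771 genes in all. limma-voom called 14 of 62, against 2498 higher and 2318 lower of 16771 genes in all. The median log2 fold change of the 62 was 0.16, against 0.05 for all genes.

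Among the proteins that assemble with FRI none of 5 passed in limma (1 at an unadjusted p under 0.05, 0 in edgeR and DESeq2, 1 lower in limma-voom). *FRL1* had 36.5, 29.0 and 14.2 normalized counts in 4v, against 23.9, 19.4 and 28.9 in 0v. *FRL2* had 15.2, 26.3 and 36.9 in 4v, against 30.7, 35.5 and 32.6 in 0v. Both relatives of *FRI* overlapped between the groups, with log2 fold changes of 0.06 and -0.36 (limma adjusted p = 0.935 and 0.536). Of the 18 tested chromatin factors that activate *FLC*, such as the PAF1 and SWR1 complexes and histone methyltransferases, 0 passed in limma (2 at an unadjusted p under 0.05, 0 in edgeR, 1 lower in DESeq2, 2 lower in limma-voom), with a median log2 fold change of 0.16.

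Among the 15 tested partners of the RNA-processing arm, *HUA1* rose and *GRP8* fell in limma (6 at an unadjusted p under 0.05, the same counts of 1 and 1 in edgeR and DESeq2, 1 higher and 4 lower in limma-voom). *HUA1*, an RNA-binding zinc-finger protein known from the processing of floral transcripts, had 219, 194 and 213 normalized counts in 4v, against 140, 123 and 105 in 0v (log2 fold change 0.76, limma adjusted p = 0.0290). *GRP8*, a glycine-rich RNA-binding protein under clock control, had 301, 378 and 281 in 4v, against 727, 797 and 2147 in 0v. Its log2 fold change was -1.75 (limma adjusted p = 0.0319), and without 0v replicate 3, the highest library, it was -1.25 (adjusted p = 0.00544). *GRP7*, its close relative, was chosen after its values were seen. It showed the same library apart, with 8234, 9927 and 10125 in 4v, against 1082, 1178 and 16359 in 0v. Unlike *GRP8* it had a positive log2 fold change, in 21 of 21 alternatives, and passed in 2 of them. Over all 6 libraries *GRP7* did not pass in limma. The alternatives gave 0.57 to 3.05, with adjusted p-values up to 0.747. The upper end, 3.05 (limma adjusted p = 0.000261), came without 0v replicate 3, its highest library. Each of the *HUA1* and *GRP8* calls was lost on leaving out any 4v library or 0v replicate 2 (adjusted p up to 0.104 and 0.106).

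Among the 18 tested partners and relatives of FLD, FVE and REF6 1 passed in limma (6 at an unadjusted p under 0.05, 0 in edgeR and DESeq2, 2 higher and 1 lower in limma-voom). The groups did not overlap in 5 of the 18 on the higher side, against 20.5% of all genes. On the lower side it was 2 of the 18, against 18.7% of all genes (39.2% on either side). *HDA9*, a histone deacetylase, had 134, 134 and 148 normalized counts in 4v, against 78.5, 67.8 and 98.4 in 0v (log2 fold change 0.75, limma adjusted p = 0.0479). That call was close to the threshold: it passed in 7 of 21 alternatives, and of those that leave out 1 library only without 0v replicate 3 (adjusted p = 0.0239, and up to 0.142 in the others). *HDA6*, the deacetylase known to act with FVE and FLD at *FLC*, had 177, 173 and 156 in 4v, against 140, 93.6 and 120 in 0v. Its groups did not overlap either, but it did not pass (0.52, limma adjusted p = 0.116).

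*MSI5*, the closest relative of *FVE* and partly redundant with it, had 67.0, 47.6 and 68.1 normalized counts in 4v, against 23.9, 38.7 and 17.6 in 0v. Each 4v library was above each 0v library, with a log2 fold change of 1.12 (SE 0.34, 95% interval 0.32 to 1.92, limma adjusted p = 0.0710), which missed the threshold. It passed in 1 of 20 alternatives, limma-voom (1.44, adjusted p = 0.0096). As the reads were 75 bases long, only sequence shared over at least that length would give whole reads identical in both genes. Their longest identical stretch is 41 bases of coding sequence across an exon junction, at chr2:8459040-8459165 on the plus strand for *FVE* and chr4:14559325-14559460 on the minus strand for *MSI5*. It is shown because it is shorter than a read.

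FVE and MSI5, shared stretch, 5′ to 3′: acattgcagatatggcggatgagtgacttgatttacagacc

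No other pair of a member and its relative compared here, among them *FVE* with *MSI1*, *MSI2* and *MSI3*, shared more than 15 bases in a row. *LDL1*, a relative of *FLD* that also acts on *FLC*, had 51.8, 39.5 and 56.8 normalized counts in 4v, against 75.1, 80.7 and 61.6 in 0v. Its groups did not overlap and it did not pass (-0.52, limma adjusted p = 0.182). *LDL2* overlapped between the groups (-0.23, adjusted p = 0.743). *LDL3* was listed at 0 in 0v replicate 2 and had 51.8, 23.1 and 90.9 in 4v, against 143 and 11.6 in the other 0v libraries. *ELF6*, the relative of *REF6*, had 140, 151 and 122 in 4v, against 167, 190 and 258 in 0v, again without overlap and without passing (-0.54, limma adjusted p = 0.118).

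**Figure D4:**
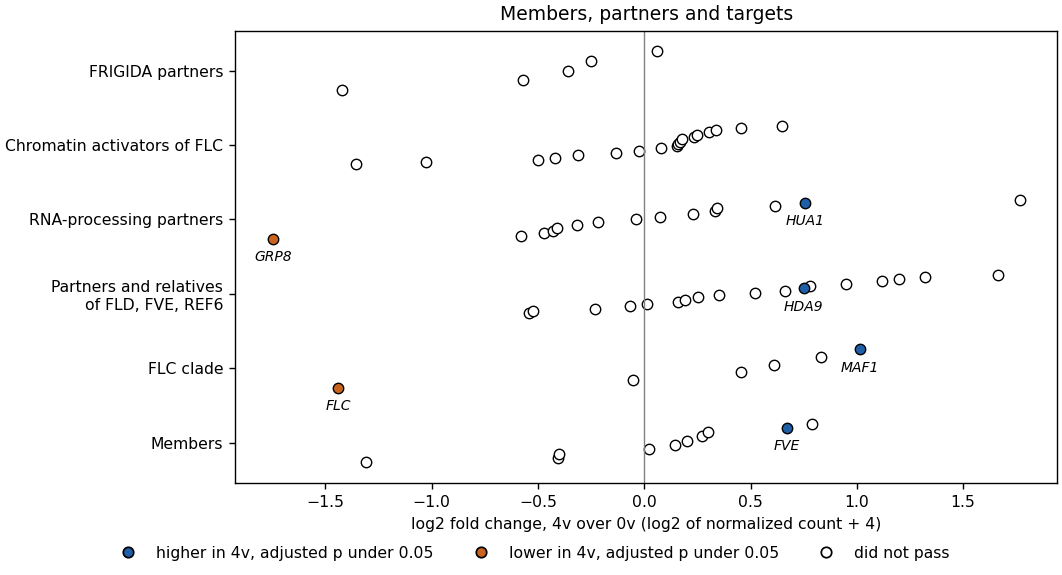
Log2 fold change, 4v over 0v (horizontal axis), of each tested gene of the FRIGIDA partners, the chromatin activators of *FLC*, the RNA-processing partners, the partners and relatives of FLD, FVE and REF6, the *FLC* clade and the 10 regulators (rows). Each circle is a gene, blue where it passed as higher, orange where it passed as lower and open where it did not pass; the vertical spread within a row only separates the circles, and 6 genes in all passed.

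*FLC* itself, the target of the pathway, fell. It had 15.2, 27.6 and 31.2 normalized counts in 4v, against 75.1, 51.6 and 92.9 in 0v. Each 4v library was below each 0v library, with a log2 fold change of -1.44 (SE 0.35, 95% interval -2.27 to -0.61, limma adjusted p = 0.0395), and the deep libraries gave a ratio of 0.297. The call was lost on leaving out any 1 library (adjusted p = 0.0504 to 0.105). Antisense transcripts overlap *FLC*, and their reads cannot be told apart from those of the gene where counting did not use strand. *MAF1*, a repressor of the same clade also named *FLM*, rose: it had 253, 312 and 301 normalized counts in 4v, against 150, 106 and 172 in 0v (log2 fold change 1.02, limma adjusted p = 0.0237). That call was lost on leaving out any 4v library or 0v replicate 1 (adjusted p up to 0.0870). None of the other 4 genes of the clade passed in limma. Among them *MAF3*, named after its values were seen, passed as higher in 6 of 21 alternatives, limma-voom included (0.76, adjusted p = 0.0425).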

How the data were processed

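Whole seedlings were sequenced (polyadenylated RNA, 75-base read pairs). Kallisto, with TAIR10 as reference, and DESeq2 were the authors' tools; no source used here gives their versions. The signal the authors deposited for a gene is a count divided by the size factor of its library, and 100% of values were within 0.05 of a whole read. The deposited columns of the authors' own comparison (mean, fold change, error, statistic, p-values) and 20 columns without a sample name were not used, nor was 1 of 18369 genes, whose values are displaced. Depth is given with the results, and counting intervals cover counting error only.

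limma 3.58.1 (R 4.3.3, eBayes with trend) was fitted to all 6 libraries without covariates, after tests on simulated data. The 21 alternatives comprised fits with a pseudocount of 1 or 16, without a filter or with a minimum mean of 50, with a replicate block, after quantile or TMM scaling, without the trend, with sample weights, with depth class as covariate, after thinning, without each library in turn, and on the shallow libraries only. Among them edgeR 4.0.16, DESeq2 1.42.0 and limma-voom used recovered reads. Members, lists and rules were chosen with earlier results of these data known. Named are all members and, per other list, at most 4 genes that passed, besides *FRL1*, *FRL2*, *LDL1*, *LDL2*, *LDL3*, *MSI5*, *ELF6*, *HDA6*, *FLC*, *VIN3* and the reference genes; *GRP7*, *MAF3* and single cell type markers were named after their values were seen. Coordinates were identical to RefSeq TAIR10.1 for 18306 of 18307 matched genes.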

Additional observations from a re-analysis of the deposited data

How the results depend on the processing

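*FRI*, *REF6* and *FLD* rest on under 30 reads in each shallow library. The count of regulators passing as higher (1, *FVE*) became 0 with the replicate block, eBayes without trend, thinned reads and the 4 shallow libraries alone, and was 0 to 1 when each library was left out. The count passing as lower became 1 with limma-voom (*FLD*). The count of partners and targets passing (5) became 0 with the replicate block, 3 without trend and 14 with limma-voom. It was 0 to 8 with 1 library left out, and 8 was reached without 0v replicate 3. Over all genes, 1083 higher and 1172 lower became 481 and 567 with the block and 2498 and 2318 with limma-voom. With 1 library left out they lay between 260 and 1521 higher and between 400 and 1440 lower. The counts of 1521 and 1440 came without 0v replicate 3. Leaving out any other library gave at most 653 higher and 756 lower. The cause was not tested.

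Small changes turned sign. *FCA* was at -0.088 with limma-voom, -0.031 with edgeR and -0.036 with DESeq2, and *FRI* at -0.072 with limma-voom. With 1 library left out, *FCA* ranged from -0.075 to 0.14, *FRI* from -0.072 to 0.47, *FY* from -1.30 to 1.66 and *FPA* from -0.17 to 0.55. Libraries with the same replicate number did not deviate together (correlations 0.07, -0.13 and -0.13). The highest correlation, 0.27, was between the 2 deep libraries, which carry different numbers. Whether the numbers pair the samples therefore cannot be judged from these values. The replicate block left the log2 fold change of *FVE* at 0.67, with an adjusted p of 0.0795.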
